A study of Mus musculus with 9 samples.

Results

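The prostaglandin synthesis genes comprise the 10 mouse genes Pla2g4a, Ptgs1, Ptgs2, Ptges, Ptges2, Ptges3, Ptgis, Ptgr1, Abcc4 and Ptger4, chosen by symbol. They encode enzymes that release arachidonate and turn it into prostaglandins, with a breakdown enzyme (Ptgr1), a transporter and a receptor of the products. All 10 were found among the 35275 genes counted, each as 1 entry. RNA came from MEFs (mouse embryonic fibroblasts) of wild type C57Bl/6 genotype, grown in DMEM with 10% FBS, and was sequenced as 9 libraries. The 3 control libraries came from cells in iso-osmolar medium (300 mOsm), and 3 libraries each came from cells at 500 mOsm (200 mM sucrose added, the low-intensity stress) and at 600 mOsm (300 mM sucrose added, the high-intensity stress). Treatment lasted 3 h. All 3 groups shared the cells and the medium and differed in the sucrose, so added sugar and raised osmolarity cannot be told apart here. The labels do not say that the libraries of a group came from separate cultures, so p-values measure the spread between these libraries, which may be technical.

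Prostaglandins are short-lived lipid signals that most cells make on demand rather than store. Phospholipase A2 frees arachidonate from membrane phospholipids, a cyclooxygenase converts it to the unstable intermediate prostaglandin H, and a terminal synthase turns that intermediate into prostaglandin E, prostacyclin or another product, which leaves the cell and acts through receptors on the same or neighbouring cells. Fibroblasts are a known source of prostaglandin E, and of the pair of cyclooxygenase genes Ptgs1 is usually steadily expressed whereas Ptgs2 is an inducible gene whose mRNA turns over quickly.

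Between 21716042 and 26740832 reads were counted on genes per library, and 13082 genes passed a filter on low counts and were tested. Values are given as CPM (counts brought to the same fixed library size with edgeR's TMM factors) for comparing libraries, and as FPKM (counts scaled to gene length and library total) for comparing genes. A count of 3 corresponded to 0.113 to 0.137 CPM, a limit that covers counting error only. A gene was called where the quasi-likelihood test of edgeR gave it an adjusted p under 0.05. Of 10 fibroblast markers, 9 had a mean above 1 CPM, with a summed level of 20220 to 24630 CPM over the libraries, whereas Dcn, which encodes decorin and is a usual fibroblast marker, had 0 to 3 counts per library. Of the markers of other cell types, 3 of 8 leukocyte and macrophage markers in the table had a mean above 1 CPM, among them Lyz2 with 78 to 486 counts per library, as did 1 of 6 epithelial (Cdh1) and 1 of 4 endothelial markers (Pecam1). Ptprc, the general leukocyte marker, had at most 7 counts in a library, and the keratin Krt5 had 0. In bulk RNA, fewer cells of a type and less RNA per cell cannot be told apart.

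Between the stress intensities 3 of the 10 members were called, Ptgs2, Ptges and Ptger4, where 29.1% of all tested genes were. Ptges passed the filter on low counts only through its low-intensity libraries, so its call is not independent of that choice. The Abcc4 libraries did not overlap between the intensities, but its difference was not called (edgeR adjusted p = 0.0673). The 250 bases before the RefSeq start of each called member are shown, with matches to the searched promoter motifs in capitals. They are 5′ to 3′ on the gene's strand, from GRCm38.p6, at chr1:150099781-150100030 (plus strand), chr2:30903298-30903547 (minus strand) and chr15:5244188-5244437 (minus strand).
Ptgs2: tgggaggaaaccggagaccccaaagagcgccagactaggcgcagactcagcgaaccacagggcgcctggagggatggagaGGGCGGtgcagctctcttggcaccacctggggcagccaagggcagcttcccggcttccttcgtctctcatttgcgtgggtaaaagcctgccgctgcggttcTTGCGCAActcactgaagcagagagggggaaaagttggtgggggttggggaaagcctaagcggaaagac
Ptges: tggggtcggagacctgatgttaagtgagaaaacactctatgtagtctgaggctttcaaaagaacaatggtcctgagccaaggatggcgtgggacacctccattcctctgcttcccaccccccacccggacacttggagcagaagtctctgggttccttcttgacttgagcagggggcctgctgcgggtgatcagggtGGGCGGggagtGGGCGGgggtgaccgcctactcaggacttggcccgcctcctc
Ptger4: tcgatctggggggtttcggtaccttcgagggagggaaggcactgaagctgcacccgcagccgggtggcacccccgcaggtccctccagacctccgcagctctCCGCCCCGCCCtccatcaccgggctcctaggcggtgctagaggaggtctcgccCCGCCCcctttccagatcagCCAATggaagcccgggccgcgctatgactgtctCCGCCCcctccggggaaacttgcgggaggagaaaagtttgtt
In the Ptgs2 sequence the capitals mark a GC box (GGGCGG) at -170 to -165 and a palindromic match to the C/EBP motif (TTNNGCAA) at -69 to -62, counted from the start. The Ptges sequence holds GC boxes at -53 to -48 and at -42 to -37. The Ptger4 sequence holds a CCAAT box (CCAAT) at -75 to -71 and 4 GC boxes on the opposite strand, of which those at -148 to -143 and -143 to -138 share a base.

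Both strands of the 250 bases were searched. GC boxes were found in windows of 6 of the 9 members with a RefSeq promoter, and in 32.7% of all 32851 promoter windows. The C/EBP motif was found in 3 members (Ptgs2, Abcc4 and Ptgr1) and in 9.56% of windows, and the CCAAT box in Ptger4 and Ptgr1 and in 33.8% of windows. The E-box (CACGTG) was found in Abcc4 and Ptges2 and in 6.02% of windows, the TATA box (TATAAA) in Pla2g4a and in 12.4%, and the C/EBP-ATF element (TGATGNAA) in Ptgr1 and in 3.45%. The Pla2g4a match lay in a window inside the gene (chr1:149922440-149922689), and the window at its listed start held no match. Abcc4 also had a further window inside the gene. The background counts each window once, so members with a further window had more bases searched. No member's window held the letters of the CRE (TGACGTCA, in 1.55% of all windows), its core (TGACG, 17.8%), the AP-1 site (TGANTCA, 6.75%), the κB site (GGG, any 2 bases and TTTCC, 1.41%) or the TonE consensus (4.31%), the element bound by TonEBP. The core is part of the CRE. A match describes letters in this window and says nothing of binding.

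**Figure D1:**
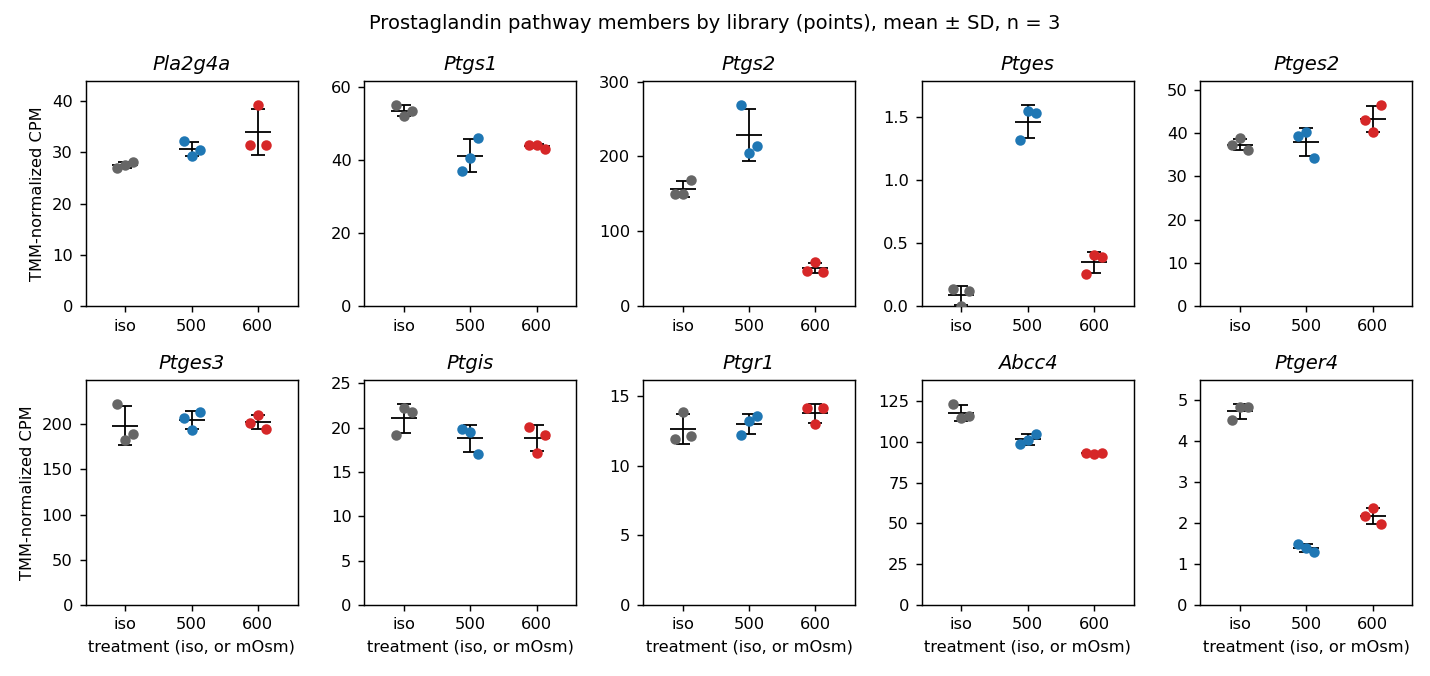
Level of each prostaglandin synthesis gene in CPM (y axis, starting at 0, with its own scale in each panel) in the 3 iso-osmolar, 3 500 mOsm and 3 600 mOsm libraries (points), with the mean and SD in black. Ptgs2 is highest at 500 mOsm (229 CPM) and lowest at 600 mOsm (50.8 CPM), Ptges rises from near 0 to 1.46 CPM at 500 mOsm, and Ptger4 is lower at both intensities.

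The release step is represented by Pla2g4a, the cytosolic phospholipase A2 that prefers arachidonate (chr1:149829618-149961290, minus strand, mm10). Its level was 26.9, 27.5 and 28.1 CPM in the iso-osmolar libraries, 32.2, 29.3 and 30.5 CPM at 500 mOsm, and 31.5, 39.2 and 31.5 CPM at 600 mOsm. Every treated library was above every iso-osmolar one, and the intensities overlapped. At 600 mOsm Pla2g4a rose by 0.31 ± 0.09 on the log2 scale (fold change ± SE, adjusted p = 0.0169), a 1.24-fold change. At 500 mOsm the log2 difference was 0.16 ± 0.09 (adjusted p = 0.223), with a 95% interval of -0.02 to 0.33. The call at 600 mOsm rested on single libraries, since the adjusted p became 0.0608 and the log2 change 0.19 without the second 600 mOsm library, and the adjusted p 0.0533 without the first iso-osmolar library.

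The cyclooxygenases responded in different ways. Ptgs2, the inducible enzyme known as COX-2 (chr1:150100031-150108227, plus strand), was at 149.7, 150.3 and 168 CPM in iso-osmolar medium. It was at 269, 204 and 213 CPM at 500 mOsm and at 47.6, 58.7 and 46.0 CPM at 600 mOsm. The 3 groups did not overlap, and of the 500 mOsm libraries the first was the highest. Ptgs2 rose 1.46-fold at 500 mOsm (log2 change 0.55 ± 0.11, adjusted p = 0.00158). It fell to 0.325 of the iso-osmolar level at 600 mOsm (log2 change -1.62 ± 0.11, adjusted p = 3.51e-07). Against 500 mOsm, the level at 600 mOsm was 0.222-fold (log2 change -2.17 ± 0.11, 95% interval -2.39 to -1.95, adjusted p = 2.87e-08).

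Ptgs1, the steadily expressed COX-1 (chr2:36230426-36252272, plus strand), was at 54.9, 51.9 and 53.4 CPM in iso-osmolar medium. Its level was 36.9, 40.45 and 46.1 CPM at 500 mOsm and 43.95, 44.0 and 43.0 CPM at 600 mOsm. All treated libraries were below all iso-osmolar ones, and the intensities overlapped. Ptgs1 fell to 0.771 of the iso-osmolar level at 500 mOsm (log2 change -0.38 ± 0.07, adjusted p = 0.0019) and to 0.817 of it at 600 mOsm (log2 change -0.29 ± 0.07, adjusted p = 0.00904). Between the intensities the log2 difference was 0.08 (95% interval -0.06 to 0.23, adjusted p = 0.44).

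Per gene length, Ptgs2 stood above Ptgs1 in iso-osmolar medium and at 500 mOsm and below it at 600 mOsm. The ratio of Ptgs2 FPKM to Ptgs1 FPKM was 1.75, 1.86 and 2.03 in the iso-osmolar libraries, a mean of 1.88 ± 0.14 (SD, n = 3). It was 4.68, 3.25 and 2.98 at 500 mOsm (3.64 ± 0.914) and 0.697, 0.859 and 0.689 at 600 mOsm (0.748 ± 0.0957). No library of one treatment overlapped another in this ratio. The summed FPKM of both genes was 54.0 ± 2.82 without stress, 65.9 ± 7.04 at 500 mOsm and 26.4 ± 2.16 at 600 mOsm. For the ratio and the sum, each pair of treatments gave p = 0.1 in an exact two-sided permutation test, the smallest p that 3 libraries against 3 allow.

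**Figure D2:**
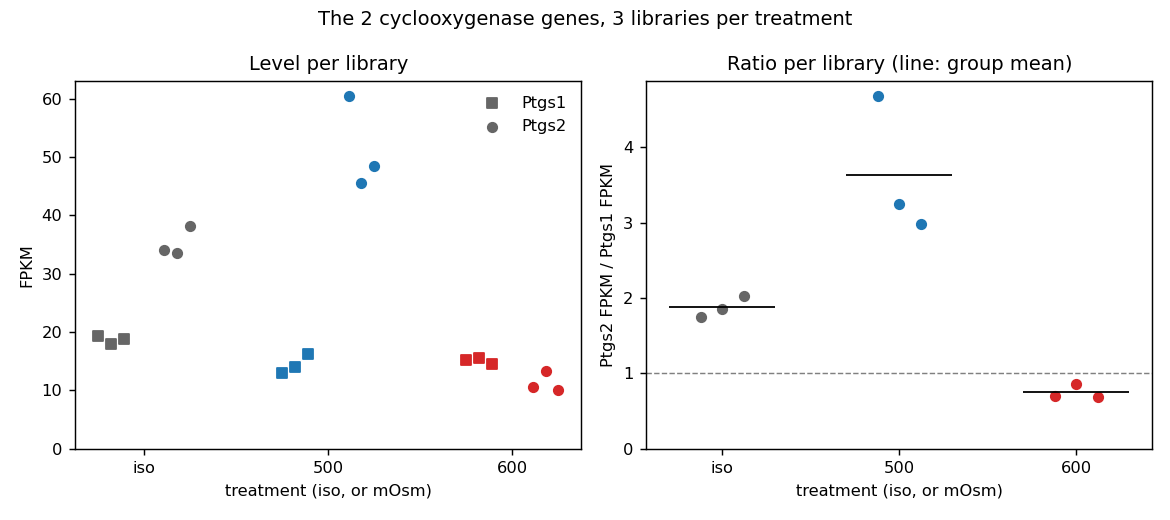
Left, FPKM of Ptgs1 (squares) and Ptgs2 (circles) in each library of the iso-osmolar, 500 mOsm and 600 mOsm groups. Right, the ratio of Ptgs2 to Ptgs1 FPKM in each library with the group mean as a line and a dashed line at equal levels: the ratio lies above 1 in all 500 mOsm libraries, up to 4.68, and below 1 in all 600 mOsm libraries, at 0.859 or less.

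Of the terminal synthases for prostaglandin E, the inducible microsomal enzyme Ptges (mPGES-1) changed. Ptges (listed at chr2:30889471-30929863, minus strand, a span that reaches upstream of the RefSeq start) had 3, 0 and 3 counts in the iso-osmolar libraries. It had 32, 41 and 40 counts at 500 mOsm and 6, 9 and 10 counts at 600 mOsm. The 3 groups did not overlap, and the gene passed the filter only through the 500 mOsm libraries. Its mean level without stress was 0.0864 ± 0.0752 CPM (SD, n = 3), at or under the limit of 3 counts in each library, then 1.46 ± 0.130 CPM at 500 mOsm and 0.347 ± 0.0834 CPM at 600 mOsm. The listed span of Ptges shares 380 bases with the pseudogene Gm13400 on the same strand, 0 of them in exons of both. Gm13400 had 0, 0 and 0 counts in iso-osmolar medium, 5, 1 and 4 at 500 mOsm and 3, 1 and 1 at 600 mOsm.

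Since the iso-osmolar counts were so few, the size of the Ptges change was taken from summed counts scaled to library size. The ratio to iso-osmolar medium was 17.3 at 500 mOsm (95% interval 7.70 to 48.1, 113 against 6 counts) and 4.09 at 600 mOsm (1.64 to 12.2, 25 against 6 counts). The ratio of 600 to 500 mOsm was 0.237 (0.147 to 0.368). These intervals cover counting error only. In edgeR, Ptges rose at 500 mOsm (adjusted p = 2.12e-05) and at 600 mOsm (adjusted p = 0.0219) and was lower at 600 than at 500 mOsm (adjusted p = 0.000595). Since the gene entered the test through its 500 mOsm libraries, the p-values of the comparisons with 500 mOsm are not independent of that choice, and the counts and ratios describe the difference. The call at 600 mOsm against iso-osmolar medium was lost without the second iso-osmolar library (adjusted p = 0.0553), the second 600 mOsm library (adjusted p = 0.0512) or the third 600 mOsm library (adjusted p = 0.0632).

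Some genes of other cell types moved with Ptges. Of 4 endothelial markers, only Pecam1 had a mean above 1 CPM, and the summed level of the list was 0.778 to 0.900 CPM in iso-osmolar medium, 11.95 to 13.4 CPM at 500 mOsm and 2.14 to 3.18 CPM at 600 mOsm. The corresponding ranges of the 6 epithelial markers were 0.205 to 0.491, 4.04 to 4.80 and 0.348 to 0.628 CPM, and those of the 8 leukocyte and macrophage markers in the table were 15.7 to 20.0, 24.2 to 36.0 and 18.6 to 29.2 CPM. Pecam1 had 4 to 11 counts per library in iso-osmolar medium, 265 to 314 at 500 mOsm and 31 to 53 at 600 mOsm, and rose at 500 mOsm (adjusted p = 2.66e-08). In the same order, the epithelial marker Cdh1 had 0 to 1, 86 to 91 and 1 to 4 counts, the myeloid marker Itgam 0 to 2, 35 to 61 and 3 to 5, and the endothelial markers Tek 0 to 1, 12 to 13 and 0 to 3 and Kdr 0, 6 to 11 and 0 to 4. Cdh5, an endothelial cadherin, had 11 to 19 counts per library over all treatments, and Epcam had at most 1. The macrophage marker Lyz2 did not follow Ptges, with means of 4.93, 10.2 and 12.4 CPM in the same order. Cd68 had similar means at both intensities (1.278, 1.618 and 1.635 CPM), whereas Csf1r was highest at 500 mOsm (11.2, 14.55 and 9.92 CPM). The number of genes with at least 1 count was also largest at 500 mOsm (18920 to 19222, against 16452 to 16871 in iso-osmolar medium and 17846 to 18031 at 600 mOsm). The part of these in the Ptges result was not tested.

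The other terminal synthases were not called in any comparison. Ptges2, a membrane-associated prostaglandin E synthase (chr2:32395896-32402739, plus strand), averaged 37.3 ± 1.35 CPM under iso-osmolar conditions (SD, n = 3), 37.9 ± 3.33 CPM at 500 mOsm and 43.2 ± 3.06 CPM at 600 mOsm. Its 600 mOsm libraries, at 42.9, 40.3 and 46.4 CPM, all lay above the iso-osmolar ones, at 37.2, 38.7 and 36.0 CPM, with a log2 difference of 0.21 ± 0.08 whose adjusted p of 0.0502 just missed the threshold. It passed the threshold under 9 of 20 other settings, with adjusted p from 0.0291 to 0.187 over all of them.

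Ptges3, the cytosolic prostaglandin E synthase that is also the p23 co-chaperone of Hsp90 (chr10:128058954-128077272, plus strand), had the highest FPKM of the members in each treatment. It was at 223, 182 and 189.5 CPM in iso-osmolar medium, 207, 194 and 213 CPM at 500 mOsm and 202, 210.1 and 195 CPM at 600 mOsm. All 3 groups overlapped. The 95% intervals of its log2 differences from iso-osmolar medium were -0.09 to 0.19 at 500 mOsm and -0.11 to 0.17 at 600 mOsm. Its reads could be split with a processed copy on chromosome 6, Ptges3-ps in the annotation and Gm9769 in the table, that is identical over 480 bases and took 4534 counts over the 9 libraries against 44340 for Ptges3. Gm9769 was called in no comparison.

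Ptgis, the prostacyclin synthase (chr2:167191805-167240604, minus strand), was at 19.2, 22.2 and 21.8 CPM in the iso-osmolar libraries, 19.8, 19.5 and 17.0 CPM at 500 mOsm and 20.1, 17.2 and 19.1 CPM at 600 mOsm. The groups overlapped, and the log2 differences from iso-osmolar medium were -0.17 (95% interval -0.35 to 0.02, adjusted p = 0.219) and -0.16 (-0.34 to 0.02, adjusted p = 0.199). With a correction for GC content and length the difference at 600 mOsm was -0.26 and passed the threshold (adjusted p = 0.0153). Ptgis overlaps antisense transcripts with 41 and 5 counts in all, and the counting was not stated to use strand.

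Ptgr1, the reductase that inactivates prostaglandin and leukotriene metabolites (chr4:58965439-58987119, minus strand), was at 11.9, 13.8 and 12.1 CPM in the iso-osmolar libraries, 12.2, 13.2 and 13.6 CPM at 500 mOsm and 14.1, 13.0 and 14.2 CPM at 600 mOsm. The groups overlapped, and the largest of its log2 differences was 0.12 (600 mOsm against iso-osmolar medium, 95% interval -0.06 to 0.30, adjusted p = 0.322).

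The transporter and the receptor gene fell at both intensities. Abcc4 (MRP4, chr14:118482692-118706219, minus strand), a pump that exports prostaglandins and cyclic nucleotides, was at 123, 115 and 116 CPM in iso-osmolar medium. Its level was 98.5, 101 and 105 CPM at 500 mOsm and 93.3, 92.5 and 93.5 CPM at 600 mOsm. The 3 groups did not overlap, in falling order. Abcc4 fell to 0.862 of the iso-osmolar level at 500 mOsm (log2 change -0.21 ± 0.05, adjusted p = 0.00475) and to 0.789 of it at 600 mOsm (log2 change -0.34 ± 0.05, adjusted p = 0.000171). The difference between the intensities, -0.13 on the log2 scale, did not pass (adjusted p = 0.0673). With the GC content and length correction the change at 600 mOsm was -0.16 (adjusted p = 0.0135).

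Ptger4, which encodes the prostaglandin E receptor EP4 that raises cyclic AMP (chr15:5206661-5244187, minus strand), was at 4.51, 4.83 and 4.83 CPM in iso-osmolar medium. It was at 1.48, 1.39 and 1.30 CPM at 500 mOsm and at 2.18, 2.37 and 1.97 CPM at 600 mOsm. The 3 groups did not overlap, and the lower intensity had the lower level. Ptger4 fell to 0.294 of the iso-osmolar level at 500 mOsm (log2 change -1.76 ± 0.14, adjusted p = 1.34e-06) and to 0.460 of it at 600 mOsm (log2 change -1.12 ± 0.14, adjusted p = 4.74e-05). It was 1.56-fold higher at 600 than at 500 mOsm (log2 change 0.64 ± 0.16, 95% interval 0.33 to 0.95, adjusted p = 0.00839).

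The Ptger4 locus shares 11676 bases with Ttc33 on the opposite strand, of which 82 are in exons of both. Ttc33 had 272 to 397 counts per library and was called in no comparison. The pseudogene Gm15937, also on the opposite strand, shares 1015 of the 6648 bases in exons of any Ptger4 transcript. It is identical over 874 bases and had 0 counts. Of the 6648 bases, 3321 lie only in transcripts other than protein-coding ones, and the listed gene length of Ptger4 is 3771. How reads in the shared bases were assigned is not given, which bears on the level of Ptger4 per length.

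Counted together, 5 of the 10 members were called at 500 mOsm against iso-osmolar medium, where 28.0% of all tested genes were. Of these, 2 were higher (Ptgs2 and Ptges, background 13.2%) and 3 were lower (Ptgs1, Abcc4 and Ptger4, background 14.8%). At 600 mOsm against iso-osmolar medium 6 were called, where the background was 35.1%, with 2 higher (Pla2g4a and Ptges, background 15.1%) and 4 lower (Ptgs1, Ptgs2, Abcc4 and Ptger4, background 20.0%). Both comparisons use the same iso-osmolar libraries. Between 600 and 500 mOsm 3 were called against a background of 29.1%, with Ptger4 higher (background 11.9%) and Ptgs2 and Ptges lower (background 17.2%). The share between the intensities lies near its background, and the shares of 50% and 60% against iso-osmolar medium rest on 10 genes. Without Ptges, which its 500 mOsm level brought into the test, the calls were 4, 5 and 2 of 9. Ptges2, Ptges3, Ptgis and Ptgr1 were called in none of the 3 comparisons.

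The groups did not overlap for 6 members at 500 mOsm against iso-osmolar medium (background 40.9%), for 7 at 600 mOsm against iso-osmolar medium (48.4%) and for 4 between the intensities (41.5%). The median log2 difference of the 10 members was 0.03, -0.07 and 0.04 in these comparisons in turn, against 0.01 over all tested genes in each. The median size without its sign was 0.190, 0.298 and 0.139, against 0.170, 0.217 and 0.179.

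**Figure D3:**
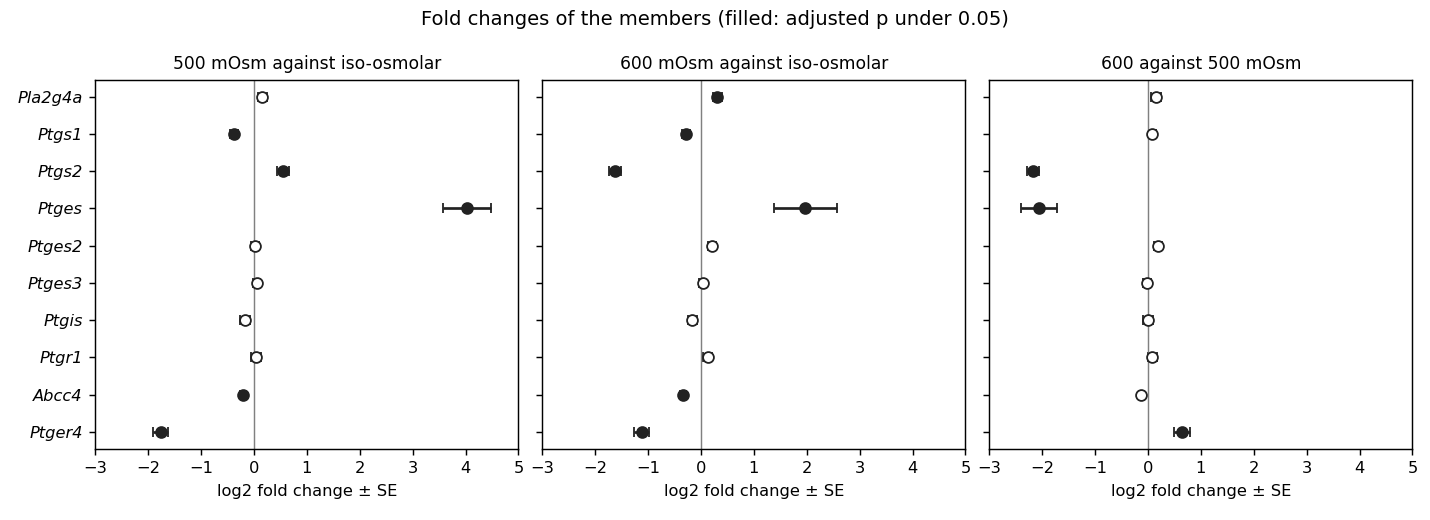
Log2 fold change (x axis) of the 10 genes in the 3 comparisons, with the SE as bars and filled points for an adjusted p under 0.05. The points of Ptgs2 lie at 0.55 and -1.62 for 500 and 600 mOsm against iso-osmolar medium, and those of Ptges at 4.03 and 1.97, both fitted against 0 to 3 iso-osmolar counts per library.

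The order of the members by FPKM differed between the treatments, most for Ptgs2. In iso-osmolar medium it ran from Ptges3 (99.6 FPKM) and Ptgs2 (35.2) through Abcc4 (20.7), Ptges2 (19.3), Ptgs1 (18.7), Ptgis (10.04), Pla2g4a (8.01) and Ptgr1 (5.53) to Ptger4 (1.26) and Ptges (0.0240). Of these neighbours only Ptges2 and Ptgs1 overlapped in their libraries. At 500 mOsm Ptgs2 stayed second at 51.5 FPKM. There Ptges2 (19.5) stood before Abcc4 (17.8), with overlapping libraries, and Ptges, at 0.402, overlapped with Ptger4, at 0.369. At 600 mOsm Ptgs2, at 11.3 FPKM, came after Ptges2 (22.0), Abcc4 (16.1) and Ptgs1 (15.1), and its libraries overlapped with those of Pla2g4a (9.79), which overlapped with those of Ptgis (8.85).

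The pathway around these members was followed through 61 further genes, of which 30 passed the filter. At 500 mOsm against iso-osmolar medium 9 of the 30 were called, 4 higher and 5 lower. At 600 mOsm 11 were called, 5 higher and 6 lower, and between 600 and 500 mOsm 10 were called, 5 in each direction. The median log2 difference of the 30 genes was 0.03, -0.02 and -0.03, against 0.01 over all tested genes. The shares called were 30.0%, 36.7% and 33.3%, near those over all tested genes (28.0%, 35.1% and 29.1%).

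In the group for arachidonate release and re-esterification, 14 of 23 genes were tested. At 500 mOsm 1 was called higher and 3 lower, at 600 mOsm 2 higher and 3 lower, and between the intensities 4 higher. The shares called, 28.6%, 35.7% and 28.6%, lay near the backgrounds of 28.0%, 35.1% and 29.1%. Dagla, a diacylglycerol lipase that makes the endocannabinoid 2-arachidonoylglycerol, was at 19.2 ± 2.27 CPM (SD, n = 3) without stress and at 7.84 ± 1.32 and 7.93 ± 0.255 CPM under stress. It fell by 1.29 on the log2 scale at 500 mOsm (adjusted p = 5.75e-06) and by 1.28 at 600 mOsm (adjusted p = 7.75e-06). Pla2g6, a calcium-independent phospholipase A2, fell by 0.37 at 500 mOsm (adjusted p = 0.000776) and was higher by 0.36 at 600 than at 500 mOsm (adjusted p = 0.00116).

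The lysosomal phospholipase Pla2g15 rose by 0.36 on the log2 scale at 600 mOsm (adjusted p = 0.00245), and was higher by 0.49 at 600 than at 500 mOsm (adjusted p = 0.000329). Pla2g16, a phospholipase abundant in adipose tissue, rose by 0.58 at 600 mOsm (adjusted p = 0.00932). Daglb, the second diacylglycerol lipase, was higher by 0.22 at 600 than at 500 mOsm (adjusted p = 0.0165).

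Of 7 other terminal synthases 2 were tested, and 1 was called higher at 500 mOsm, 1 higher at 600 mOsm, and 1 lower between the intensities, where 13.2%, 15.1% and 17.2% of all tested genes were called in these directions. Akr1b3 is aldose reductase, which makes the osmolyte sorbitol and can also act as a prostaglandin F synthase. It was at 248 ± 4.21 CPM (SD, n = 3) without stress, 641 ± 38.1 CPM at 500 mOsm and 269 ± 5.27 CPM at 600 mOsm. It rose by 1.37 on the log2 scale at 500 mOsm (adjusted p = 7.03e-10) and its change between the intensities was -1.25 (adjusted p = 1.99e-09). The synthases for prostaglandin D and thromboxane had too few counts to be tested, with at most 15 per library for Ptgds, 5 for Hpgds and 10 for Tbxas1.

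Of 11 other receptors 6 were tested. At 500 mOsm 2 were called higher and 1 lower, at 600 mOsm 2 lower, and between the intensities 4 lower. As shares of these 6 genes the calls were 50%, 33.3% and 66.7%, against 28.0%, 35.1% and 29.1% of all tested genes, of which 17.2% were lower between the intensities. Ptger1, the calcium-coupled prostaglandin E receptor, rose by 0.41 on the log2 scale at 500 mOsm (adjusted p = 0.00134), and its change between the intensities was -0.34 (adjusted p = 0.0046). The thromboxane receptor Tbxa2r rose by 1.39 at 500 mOsm (adjusted p = 0.018), with 24 to 38 counts per library against 6 to 17 without stress. Tbxa2r also passed the filter only with its 500 mOsm libraries, so this p-value is not independent of that choice. Tbxa2r is among the receptors called at 500 mOsm and among those called lower between the intensities. The receptor shares in those comparisons therefore depend in part on the filter. Ppard, a nuclear receptor for fatty acids for which prostacyclin has been proposed as a ligand, was at 226 ± 15.0 CPM (SD, n = 3) without stress, 135 ± 11.2 CPM at 500 mOsm and 133 ± 5.66 CPM at 600 mOsm. It fell by 0.74 at 500 mOsm (adjusted p = 3.27e-06) and by 0.76 at 600 mOsm (adjusted p = 3.42e-06). Ptgfrn, a membrane protein that regulates the prostaglandin F receptor, fell by 0.32 at 600 mOsm (adjusted p = 0.00057), and its change between the intensities was -0.33 (adjusted p = 0.00047). Of the other prostaglandin E receptors, Ptger2 had at most 2 counts and Ptger3 at most 13 in a library and neither was tested.

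Of 4 genes for breakdown and transport 3 were tested, and 1 was called lower at each intensity against iso-osmolar medium (background 14.8% and 20.0%) and none between the intensities. Hpgd, the main enzyme that inactivates prostaglandins, had 0 counts in every library. Of 16 lipoxygenase and leukotriene genes 5 were tested, with no call at 500 mOsm (background 28.0%), 2 higher at 600 mOsm (background 15.1%) and 1 higher between the intensities (background 11.9%). Mgst3, a microsomal glutathione transferase, rose by 0.59 on the log2 scale at 600 mOsm (adjusted p = 0.0102). Alox5, the 5-lipoxygenase, had at most 11 counts in a library.

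**Figure D4:**
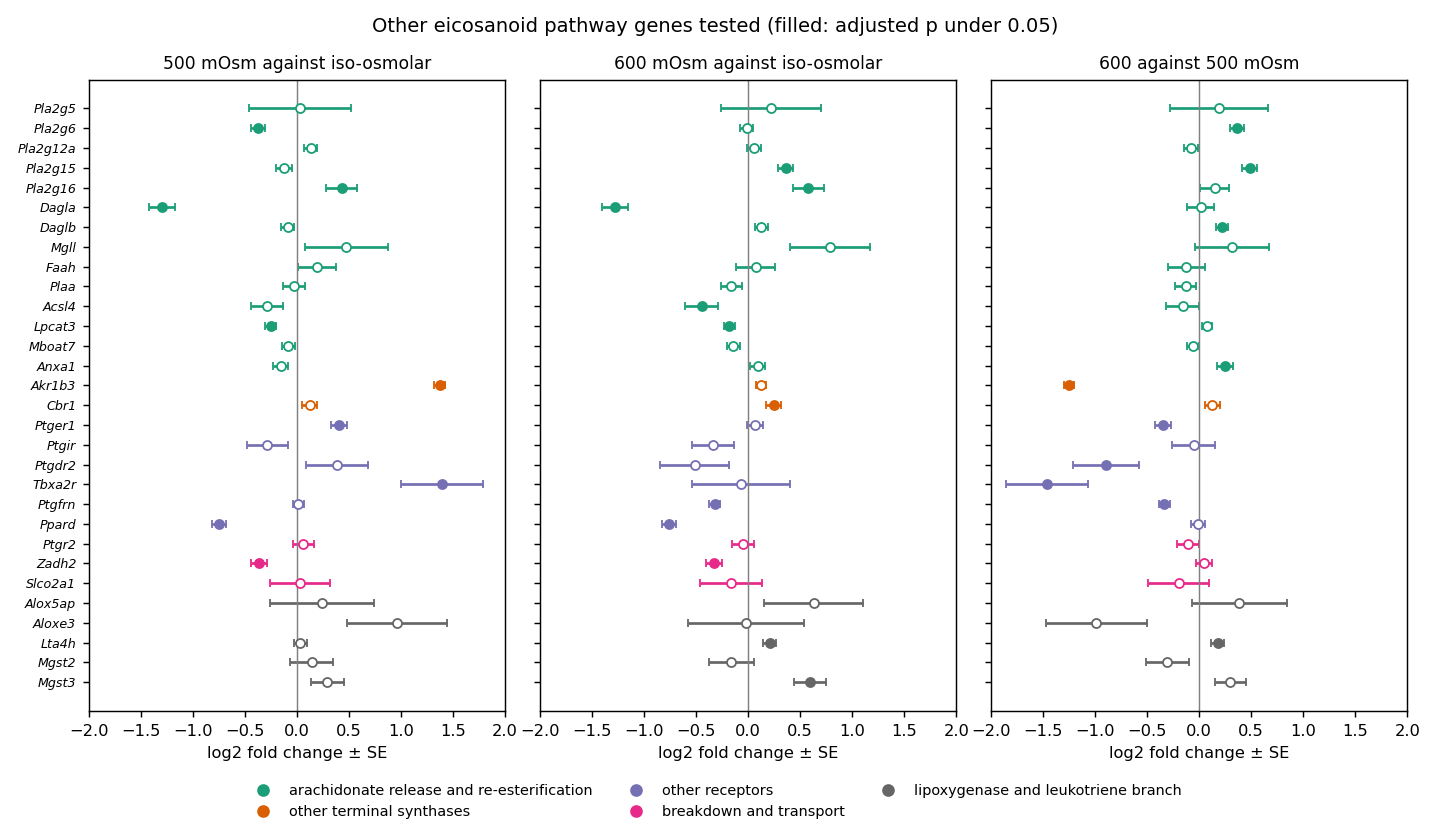
Log2 fold change (x axis, bars show the SE) of the 30 tested genes around the prostaglandin pathway in the 3 comparisons, coloured by group, with filled points for an adjusted p under 0.05. Akr1b3 stands at 1.37 at 500 mOsm against iso-osmolar medium and at -1.25 between the intensities, and Dagla at -1.29 and -1.28 against iso-osmolar medium.

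Across the 9 libraries, the genes whose log2 CPM followed a member most closely were sought among 10373 genes whose mean log2 CPM was 1 or more. The 9 libraries share 3 treatments and are not independent points, so Pearson's r is given as a description. It compares the shape of a pattern and not the size of the changes. Ptgs2 was followed by Eif4g3 (r = 0.995), Pkd2 (0.993), Baz1b (0.993), Atxn2 (0.992) and Rbm33. Their log2 changes at 500 mOsm against iso-osmolar medium ran from 0.15 (Eif4g3) to 0.25 (Atxn2), against 0.55 for Ptgs2. Ptges was followed by Plekhb2 (0.983), Kctd20, 4931414P19Rik (0.967), Gm10800 and Pecam1. For these the same log2 changes ran from 0.20 (Kctd20) to 5.28 (Pecam1), against 4.03 for Ptges. For Ptger4 the closest were Hmga2 (0.996), Nfya (0.993), Tmem2, Fem1b and Pprc1 (0.988). For Ptgs1 they were 4933426M11Rik (0.975), Manf (0.974), Fdft1, Actg1 and Bcat1, and for Abcc4 they were Cyth3, Cblb (0.988), Msmo1 (0.987), BC030336 (0.986) and Plau (0.983).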

How the data were processed

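RNA enriched with poly-T was sequenced as paired-end reads of 150 bp in 9 libraries, which the submitters' processing notes say were handled with CASAVA 1.8 and STAR on mm10. The counting tool and its use of strand are not given in the sources used here. The authors deposited, for each of 35275 genes and each library, raw read counts and FPKM, the same counts divided by gene length and library total. The fold changes and p-values in the authors' own comparison columns were not used.

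Counts were normalized by TMM and tested with edgeR 4.0.16 (quasi-likelihood test, R 4.3.3) in one fit of all 9 libraries with the treatment as factor. The 13082 genes that passed filterByExpr were tested, with Benjamini-Hochberg adjustment over all of them and a threshold of 0.05. Replicates varied with a common coefficient of 7.56%, which gave log2 fold changes a median SE of 0.0992 to 0.0997. Counting intervals for Ptges are exact conditional intervals at 95%. The 95% intervals of log2 differences use a normal approximation, with the SE taken from the F statistic of the test. They are approximate, can be too narrow and need not match the p-value of the test. FPKM entered only levels per length and limma 3.58.1, an alternative on log2(FPKM + 1) and log2(FPKM + 0.1). Shared sequence was searched with blastn 2.17.0 (at least 100 bases at 95% identity). Promoter sequences are those of RefSeq for GRCm38.p6, and 9 of 10 members had an entry. Other alternatives were RLE factors, the library size alone, other count filters, DESeq2 1.42.0, a fit without the third treatment, a block for the replicate number, a threshold of 0.01 and each library left out. A correction for GC content and gene length was added after the data were seen.

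The members and lists were chosen with earlier results of these data known. All 10 members are described. Of the wider list, each comparison names the 3 called genes of lowest p in each direction, and of the genes most like a member the 5 with the highest r. Untested genes of the wider list, the marker genes, Gm9769 and Ttc33 were named after their values were seen.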

Additional observations from a re-analysis of the deposited data

Results flagged for a closer look

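Ptgs2, Ptges and Ptger4 responded differently to the 2 intensities, by the test of the difference itself. The log2 fold change of 600 against 500 mOsm, which equals the difference of the changes against iso-osmolar medium, was -2.17 for Ptgs2 (adjusted p = 2.87e-08), with a change that was positive at 500 mOsm and negative at 600 mOsm. For Ptges it was -2.06 (adjusted p = 0.000595), with both intensities above iso-osmolar medium, though the gene passed the filter on low counts only through its 500 mOsm libraries, so this p-value is not independent of that choice. For Ptger4 it was 0.64 (adjusted p = 0.00839), with both intensities below iso-osmolar medium. In each of the 3 genes all 3 libraries of one intensity lay apart from all 3 of the other. With 3 libraries per group, no test for a single outlying library was made.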

How the results depend on the processing

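Over 20 alternative settings, the calls of Ptgs1, Ptgs2, Abcc4 and Ptger4 against iso-osmolar medium kept their direction and passed the threshold under each. A requirement of at least 10 counts in every library removed Ptges, so 9 members were tested and 1 member was higher at 500 mOsm and 1 at 600 mOsm. At an adjusted p under 0.01, no member (0) was higher at 600 mOsm, 6 genes of the wider list and 2846 of all genes were called there, and between the intensities 5 of the wider list and 2352 of all genes were called. With no filter on low counts 18 genes of the wider list and 4808 of all genes were called at 500 mOsm. With the GC content and length correction, 2 members were higher at 600 than at 500 mOsm, as Pla2g4a passed (0.19, adjusted p = 0.0457), and Pla2g4a also passed at 500 mOsm (adjusted p = 0.0387). The pseudocount compressed low genes: on log2(FPKM + 1) Ptger4 differed by -0.72, -0.52 and 0.20 in the 3 comparisons, and Ptges by 0.45, 0.10 (adjusted p = 0.0979) and -0.36. On log2(FPKM + 0.1) Ptges differed by 2.03, 0.66 and -1.37. Small differences between 600 and 500 mOsm changed sign. Ptgis was at -0.01 with the library size alone (-0.01395), on log2(FPKM + 1) (-0.01268) and on log2(FPKM + 0.1) (-0.01392), at -0.008848 with at least 10 counts, and at -0.07 with the GC correction (-0.06565, and -0.06602 with the block). Ptges3 was at 0.00109 without a filter, and Abcc4 at 0.01921 with the GC correction (0.01902 with the block). With at least 10 counts in every library the Abcc4 difference passed (adjusted p = 0.0429). The cause was not tested.

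With each library left out, the number of members higher at 600 mOsm ranged from 1 to 3, and that of the wider list called ranged from 7 to 11 at 600 mOsm and from 6 to 9 between the intensities. Differences that changed sign ranged from -0.03521 to 0.0933 for Ptges2 and from -0.007724 to 0.1409 for Ptges3 at 500 mOsm, from -0.027 to 0.1216 for Ptges3 at 600 mOsm, and between the intensities from -0.05003 to 0.01095 for Ptges3 and from -0.06224 to 0.06353 for Ptgis. The replicate block changed no member's call, with adjusted p of 0.0403 for Pla2g4a and 0.0454 for Ptges at 600 mOsm. Over 10382 genes, deviations of same-numbered libraries had a mean correlation of -0.198 (9 pairs), and 1 of 9 libraries correlated best with its own number, so the numbers were not taken to pair the samples. Depth limited Ptges, with 0 to 3 iso-osmolar counts per library.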

Other observations

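Ptgs2os, a transcript on the opposite strand that starts 68 bases upstream of the Ptgs2 start and runs away from it, was chosen after its values were seen. It had 287, 309 and 325 counts in the iso-osmolar libraries, 360, 340 and 385 at 500 mOsm and 244, 245 and 243 at 600 mOsm. The 600 mOsm libraries were below all others. The log2 change was -0.35 at 600 mOsm against iso-osmolar medium (edgeR adjusted p = 0.0119), and -0.47 between the intensities (adjusted p = 0.00239). At 500 mOsm the log2 difference from iso-osmolar medium was 0.11 (adjusted p = 0.406). The counting was not stated to use strand.

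Pla2g4a starts 138741 bases upstream of the Ptgs2 start on the opposite strand of chromosome 1, with 2 listed genes between them. At 600 mOsm against iso-osmolar medium Pla2g4a was called higher (log2 change 0.31), where Ptgs2 was called lower (log2 change -1.62). The Pla2g4a call was lost without the second 600 mOsm library or without the first iso-osmolar library.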
